A study of Mus musculus with 4 samples.

Results

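The vascular endothelial growth factor (VEGF) system was followed through chromatin accessibility in mouse inguinal white adipose tissue (iWAT). The 9 genes were taken by name: the ligands Vegfa, Vegfb, Vegfc and Pgf, the receptor tyrosine kinases Flt1, Kdr and Flt4, and the co-receptors Nrp1 and Nrp2. They are 9 of 17173 protein-coding genes that held at least 1 peak on the gene body or in the 2 kb upstream of it. Their 115 peaks came from a set of 189598 open regions, and another 67 peaks lay within 50 kb of that window with a member as the nearest gene start.

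VEGF ligands are secreted dimers that act mainly on endothelial cells. Vegfa drives blood vessel growth by binding the receptors FLT1 and KDR, of which KDR carries most of the growth signal while FLT1 binds the ligand tightly and signals weakly. Vegfb and Pgf bind FLT1, Vegfc binds FLT4 and is known for lymphatic vessel growth, and the neuropilins NRP1 and NRP2 hold ligands on the cell surface beside the kinases and also bind class 3 semaphorins. In adipose tissue, adipocytes are a known source of VEGF-A, and thermogenic fat is known for its dense capillary bed.

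Single-nucleus ATAC-seq, which reads open chromatin in each nucleus, was done on iWAT of male C57BL/6 mice aged 8 weeks in 7 groups of 3 mice. The groups were untreated mice at room temperature of 22 °C (day0RT) and mice kept at 6.5 °C for 1, 3 or 7 days (day1C, day3C, day7C). Other mice were given the β3-adrenergic agonist CL-316,243 at 1 mg/kg, at room temperature, for 1, 3 or 7 days (day1CL, day3CL, day7CL). The day0RT mice were the only controls, and no vehicle group is described. No group is described as carrying a transgene or a deletion. All mice were pooled over 4 sequencing lanes, and the mouse and group of each nucleus came from the deposited annotation. Each nucleus had a cell type in the authors' annotation, which named 12 clusters, including white adipocytes, beige adipocytes, 2 clusters labelled as adipocyte progenitor cells (APC1, APC2), vascular endothelial cells (VEC) and a cluster labelled vascular smooth muscle cells (VSMC).

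There were 32552 nuclei, 1111 to 2021 per mouse, with 1340376 to 6916698 counts per mouse, where a count is 1 nucleus with reads in 1 peak. Counts were summed per mouse and cell type, a sum was kept if it held 10 nuclei or more, and levels are given as CPM, the share of all counts over genes scaled as in counts-per-million. White adipocytes gave a library in all 21 mice, beige adipocytes in 19, APC1 in 20, APC2 in 19, macrophages in 21, VEC in 15 and the VSMC cluster in 10. The adipocyte library of 1 day1CL mouse was the thinnest, with 62318 counts. The same barcode sequence was found in more than 1 mouse for 4218 barcodes, in every case between mice of 1 treatment and replicate number at different days and never within a group. Of those found in exactly 2 mice, 21.2% had the same cell type in both, against 20.7% of random pairs of nuclei.

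The cell type labels were checked against their defining genes. VEC held the highest level of 6 of 8 blood endothelial markers, with a mean summed level of 1300.2 CPM, and the white adipocyte, beige adipocyte, APC1 and macrophage labels likewise had 4 to 5 of their 6 markers highest in their own cluster. B cells held the highest level of 6 of 6 of their markers and dendritic cells of 3 of 6, with a dendritic marker sum of 1064 CPM there against 971 CPM in B cells. Of 6 T cell markers, 0 were highest in the cluster labelled T cells, 2 in Cd4 T cells and 4 in Cd8 T cells. Their sum was still 940 CPM in the T cell cluster, against 1118 CPM in Cd4 and 1125 CPM in Cd8 T cells. In every other cluster it was at most 166 CPM. APC2 held the highest level of 0 of 6 progenitor markers, with a sum of 265 CPM there against 711 CPM in APC1 and 271 CPM in Cd8 T cells. The cluster labelled VSMC went against its label. It was the highest for 7 of 8 skeletal muscle markers, with a mean sum of 1764 CPM against at most 168 CPM elsewhere, whereas 6 of 8 smooth muscle and pericyte markers were highest in APC2, with a sum of 857 CPM there and 293 CPM in the VSMC cluster. Lymphatic endothelial markers were low throughout and highest in APC2, with a sum of 242 CPM against 110.2 CPM in VEC. Values below are given under the deposited labels with these limits.

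On the mm10 genome, Vegfa lies at chr17:46016993-46032369 on the minus strand with 9 peaks, Vegfb at chr19:6982473-6987651 on the minus strand with 2, Vegfc at chr8:54077606-54187096 on the plus strand with 4, and Pgf at chr12:85166635-85177790 on the minus strand with 6. Among the receptors, Flt1 lies at chr5:147561604-147726011 on the minus strand with 19 peaks, Kdr at chr5:75932827-75978458 on the minus strand with 5, and Flt4 at chr11:49609263-49652739 on the plus strand with 5. Nrp1 at chr8:128358604-128503363 and Nrp2 at chr1:62703285-62818695, both on the plus strand, held 34 and 31 peaks. Both Vegfb peaks also counted for the neighbouring gene Dnajc4, so that reads of the pair cannot be told apart, while the other 8 members shared no peak.

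The regulatory sequences that the comparisons turn on are shown first, as mm10 reference sequence on the strand of the gene, 5′ to 3′. For Vegfa they are the 300 bases before the start at chr17:46032370-46032669, the small peak 0.9 kb upstream at chr17:46033197-46033406, the peak in an intron 9.9 kb into the gene at chr17:46022353-46022635, and the middle of the peaks 21.1 kb and 24 kb upstream, at chr17:46053353-46053652 and chr17:46056254-46056553. The -0.9 kb peak is shown for its match to a hypoxia motif, and the last 3 for accessibility that differed between conditions or adipocyte types. Capitals mark ACGTG, the core of the hypoxia response element.
Vegfa, upstream of the start: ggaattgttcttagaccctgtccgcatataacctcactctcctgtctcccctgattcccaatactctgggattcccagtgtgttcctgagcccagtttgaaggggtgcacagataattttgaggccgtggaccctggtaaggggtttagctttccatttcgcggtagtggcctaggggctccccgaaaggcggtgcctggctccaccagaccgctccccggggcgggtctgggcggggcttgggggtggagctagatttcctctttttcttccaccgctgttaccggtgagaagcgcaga
Vegfa, -0.9 kb peak: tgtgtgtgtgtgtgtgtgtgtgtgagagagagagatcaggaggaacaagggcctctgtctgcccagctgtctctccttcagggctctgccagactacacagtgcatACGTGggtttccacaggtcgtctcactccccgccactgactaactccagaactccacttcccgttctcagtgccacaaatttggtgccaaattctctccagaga
Vegfa, +9.9 kb peak: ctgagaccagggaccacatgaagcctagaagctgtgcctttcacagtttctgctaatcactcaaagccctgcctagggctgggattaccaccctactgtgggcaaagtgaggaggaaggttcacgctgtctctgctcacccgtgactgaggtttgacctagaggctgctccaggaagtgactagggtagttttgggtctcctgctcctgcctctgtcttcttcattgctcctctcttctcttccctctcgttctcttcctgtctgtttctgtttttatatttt
Vegfa, -21.1 kb peak: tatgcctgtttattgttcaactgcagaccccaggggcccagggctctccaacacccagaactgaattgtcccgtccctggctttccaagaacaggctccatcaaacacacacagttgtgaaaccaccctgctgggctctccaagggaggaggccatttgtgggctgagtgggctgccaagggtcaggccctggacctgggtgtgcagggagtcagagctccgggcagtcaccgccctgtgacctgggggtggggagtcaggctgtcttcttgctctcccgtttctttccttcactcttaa
Vegfa, -24 kb peak: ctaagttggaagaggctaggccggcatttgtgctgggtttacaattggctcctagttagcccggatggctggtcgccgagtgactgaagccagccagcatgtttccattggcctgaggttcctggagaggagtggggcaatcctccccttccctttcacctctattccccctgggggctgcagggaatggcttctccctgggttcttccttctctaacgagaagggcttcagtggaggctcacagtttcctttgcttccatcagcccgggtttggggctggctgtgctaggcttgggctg

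The next set holds the middle of an intronic Nrp2 peak (chr1:62708213-62708512), of an intronic Pgf peak (chr12:85170265-85170564) and of an Nrp1 peak over an exon of a transcript with no coding part there (chr8:128427119-128427418), each of which passed a test below. It ends with the 250 bases before the start of the endothelial receptors Flt1 (chr5:147726012-147726261) and Kdr (chr5:75978459-75978708). Capitals mark the AP-1 site TGANTCA in Pgf and Nrp1, and the cAMP response element TGACGTCA in Flt1.
Nrp2, +5.1 kb peak: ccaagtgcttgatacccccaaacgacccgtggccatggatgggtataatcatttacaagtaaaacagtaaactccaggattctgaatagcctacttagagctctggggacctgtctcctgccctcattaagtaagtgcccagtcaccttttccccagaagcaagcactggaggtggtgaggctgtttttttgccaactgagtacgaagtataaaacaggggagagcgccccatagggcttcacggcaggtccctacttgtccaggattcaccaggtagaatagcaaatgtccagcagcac
Pgf, +7.4 kb peak: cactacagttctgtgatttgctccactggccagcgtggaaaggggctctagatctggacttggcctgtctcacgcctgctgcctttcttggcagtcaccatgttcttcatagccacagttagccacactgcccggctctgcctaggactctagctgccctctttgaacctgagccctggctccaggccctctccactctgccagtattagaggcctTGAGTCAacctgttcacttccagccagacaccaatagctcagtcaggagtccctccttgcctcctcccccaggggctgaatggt
Nrp1, +68.7 kb peak: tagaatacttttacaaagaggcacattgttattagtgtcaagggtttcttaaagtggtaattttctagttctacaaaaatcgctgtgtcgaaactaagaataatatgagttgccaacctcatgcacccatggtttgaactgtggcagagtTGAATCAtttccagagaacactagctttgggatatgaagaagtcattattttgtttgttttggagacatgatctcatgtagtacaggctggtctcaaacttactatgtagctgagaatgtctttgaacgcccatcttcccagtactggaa
Flt1, upstream of the start: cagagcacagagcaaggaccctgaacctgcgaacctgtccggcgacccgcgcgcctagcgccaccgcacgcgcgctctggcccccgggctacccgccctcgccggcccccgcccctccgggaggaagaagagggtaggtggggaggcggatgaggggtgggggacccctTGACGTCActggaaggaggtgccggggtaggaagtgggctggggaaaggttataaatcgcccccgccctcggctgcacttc
Kdr, upstream of the start: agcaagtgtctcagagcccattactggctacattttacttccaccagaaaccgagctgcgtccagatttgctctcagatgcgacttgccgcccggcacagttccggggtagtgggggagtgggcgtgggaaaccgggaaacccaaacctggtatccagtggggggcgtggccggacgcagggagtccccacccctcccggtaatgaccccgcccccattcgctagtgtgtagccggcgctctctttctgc

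A search on both strands of the middle 300 bases of each peak found ACGTG in 21 of the 115 peaks of the members, 18.3%, against 15.8% of all peaks. The AP-1 letters TGANTCA were in 13 of the 115, 11.3%, against 12.3% of all peaks, and an ETS site, CCGGAAGT, was in 2 of them, 1.74%, against 0.805%. The cAMP response element TGACGTCA and the site TCAAGGTCA of oestrogen-related receptors were in the searched middle 300 bases of 0 of the 115 peaks, and in those of 0.478% and 0.632% of all peaks. The match printed upstream of Flt1 lies outside the searched part of the peak over that start. The searched letter strings do not contain each other. Of the 28 peaks at and around Vegfa, 7 held ACGTG and 3 held TGANTCA. These are matches of letters, and the shares in the members lay near those in all peaks.

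Among the ligands, Vegfa had the most accessible locus in adipocytes. White adipocytes of 21 mice ranged from 174 to 302 CPM with a median of 208 CPM, and the mean was 226 ± 37.3 CPM (SD), above the mean level of 96.3% of all genes in that cell type. Beige adipocytes held 194 ± 58.4 CPM (SD, n = 19) and the VSMC cluster 210.2 ± 130.4 CPM (SD, n = 10). These 3 cell types did not differ beyond the spread (SD) of the difference within mice, which is no test. Beige and white adipocytes are tested below. The VSMC cluster had no day0RT or day1C library. It held 142 ± 144 CPM in 5 CL mice and 278 ± 76.7 CPM in 5 cold mice. The stromal libraries came next, with 146 ± 70.8 CPM in APC2 (n = 19), 97.0 ± 56.2 CPM in VEC (n = 15) and 72.6 ± 55.3 CPM in APC1 (n = 20), and in the immune cells the means lay between 22.4 CPM in dendritic cells and 48.8 CPM in B cells. White adipocytes were above macrophages in 21 of 21 mice and above VEC in 15 of 15. Of the 9 Vegfa peaks, 4 were highest in white adipocytes, 2 in beige adipocytes and 3 in the VSMC cluster. In 4 of 6 alternative settings the VSMC cluster had the highest Vegfa mean in place of white adipocytes.

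Vegfb, the ligand of FLT1 that is linked to fatty acid uptake, had the flattest profile. Its mean was 52.6 ± 9.70 CPM (SD, n = 21) in white adipocytes, with a range of 36.8 to 76.4 CPM, and 45 ± 22.6 CPM (SD, n = 19) in beige adipocytes, and no pair of neighbours in its order of cell types differed beyond the spread. Vegfc, the ligand of FLT4, was instead highest in APC2 and APC1. It had 63.1 ± 37.6 CPM (SD, n = 19) in APC2 and 43.1 ± 36.7 CPM (SD, n = 20) in APC1 against 12.3 ± 6.26 CPM in white adipocytes and 9.10 ± 9.42 CPM in beige adipocytes, and APC2 was above white adipocytes in 17 of 19 mice. The peak over the Vegfc start held 77.1% of its counts. Pgf, or placental growth factor, had its highest mean in the VSMC cluster at 72.3 ± 76.2 CPM (SD, n = 10). That mean was raised by 1 library at 271 CPM, and the median was 57.5 CPM against 50.6 CPM in APC2. In the 8 mice with both libraries the VSMC cluster was above APC2 in 2. APC2 held 46.9 ± 28.9 CPM of Pgf and beige adipocytes 40.1 ± 25.3 CPM, while VEC held 6.60 ± 13.3 CPM with 11 of 15 libraries at 0.

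The 3 receptor kinases were all highest in VEC, although over promoter peaks only Flt4 was highest in APC2. Flt1 ranged from 131 to 583 CPM over 15 VEC libraries with a median of 266 CPM. Its mean of 297 ± 134 CPM (SD) lay beyond the spread above every other cell type, with dendritic cells next at 68.2 ± 49.8 CPM and VEC higher in 10 of 11 mice. Of 19 Flt1 peaks, 13 were highest in VEC, 3 in dendritic cells, 2 in beige adipocytes and 1 in APC2. The peak with the most Flt1 counts, 162 kb into the gene and over its last exons, was among those highest in dendritic cells.

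Kdr, the main signalling receptor, was also highest in VEC. Its level in VEC had a lowest value of 0, a median of 140.0 CPM and a highest value of 321 CPM, and a mean of 164 ± 84.4 CPM (SD, n = 15). Macrophages were second at 47.5 ± 28.3 CPM (SD, n = 21), with counts in all 21 libraries, and every other cell type was at 11.3 CPM or lower. VEC exceeded macrophages in 14 of 15 mice and macrophages exceeded dendritic cells in 14 of 17, both beyond the spread of the difference. All 5 Kdr peaks were highest in VEC, and in macrophages 2 of these 5, at the start and near the end of the gene, carried pooled levels of 13.9 and 31.4 CPM, with 0.603 to 1.21 CPM at the other 3. White adipocytes had 2.08 ± 1.81 CPM of Kdr with 6 of 21 libraries at 0.

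Flt4, the receptor of Vegfc, had a mean of 76.5 ± 97.4 CPM (SD, n = 15) in VEC, but this rested on 25 counts in all. Its libraries ran from 0 in 4 of 15 to 373 CPM in a day1C mouse with 12 nuclei, and the difference from no other cell type was beyond the spread. The VSMC cluster was next at 13.6 ± 25.2 CPM and B cells were lowest at 1.18 ± 1.74 CPM. Only 2 of the 5 Flt4 peaks were highest in VEC.

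The co-receptors were open in most cell types. Nrp1 had means of 403 ± 66.9 CPM (SD, n = 19) in beige adipocytes, 362 ± 59.9 CPM (n = 21) in white adipocytes, 311 ± 135 CPM (n = 15) in VEC and 254 ± 53.6 CPM (n = 20) in T cells, and B cells were lowest at 26.0 ± 11.3 CPM (n = 21). Nrp2 had 391 ± 75.3 CPM in beige adipocytes, 371 ± 100.0 CPM in VEC, 333 ± 97.2 CPM (n = 17) in dendritic cells and 332 ± 92.8 CPM in APC2. Beige adipocytes were not apart from the other 3 beyond the spread, and VEC had the highest mean of Nrp2 in 4 of 6 alternative settings and of Nrp1 in 2. By contrast, T cells held 46.2 ± 18.9 CPM of Nrp2 and Cd4 T cells 34.8 ± 16.7 CPM. T cells thus stood high for Nrp1 and low for Nrp2, and dendritic cells the other way round, with 116 ± 69.8 CPM of Nrp1.

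**Figure D1:**
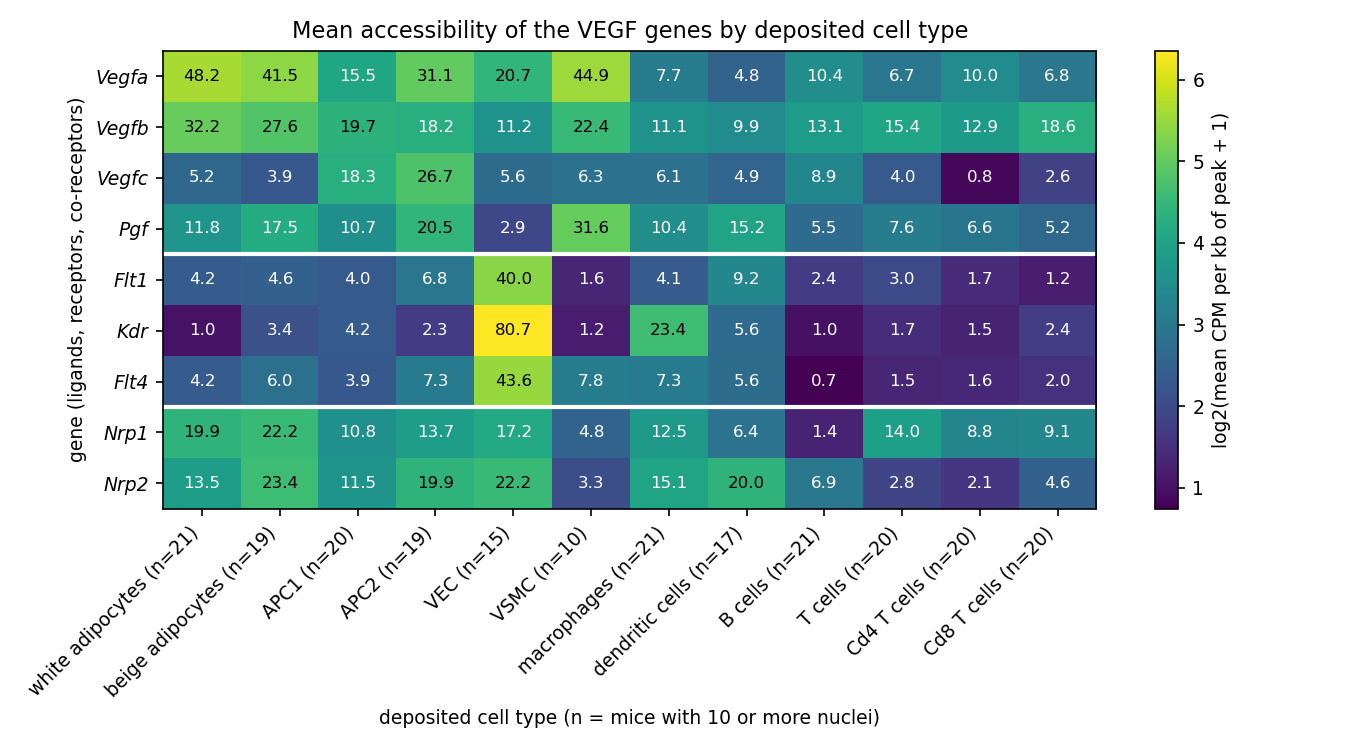
Mean level of each gene (rows: ligands, receptor kinases, co-receptors) in each deposited cell type (columns), in CPM per kb of peak printed in each cell and coloured on a log2 scale, with n the number of mice. Vegfa reaches 48.2 in white adipocytes, the 3 receptor kinases are highest in VEC with Kdr at 80.7, and the co-receptors are spread over adipocytes, VEC and immune cells.

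Per kb of peak, Kdr in VEC had the highest level of the 9 genes in any cell type, 80.7 CPM per kb. Vegfa in white adipocytes followed at 48.2 CPM per kb. A nucleus adds at most 1 count to a peak of any length, so this order of genes depends on peak width. In CPM, Kdr in VEC (164) was below Nrp1 (311) and Nrp2 (371) in VEC. Flt4 and Flt1 in VEC stood at 43.6 and 40.0 CPM per kb, an order that is not firm. The Flt4 mean of 76.5 CPM rests on 25 counts, and the pooled level was 51.8 CPM. For Flt1 the mean was 297 CPM and the pooled level 292 CPM. The highest values of the other ligands were 32.2 CPM per kb for Vegfb in white adipocytes, 31.6 CPM per kb for Pgf in the VSMC cluster and 26.7 CPM per kb for Vegfc in APC2, and those of Nrp2 and Nrp1 were 23.4 and 22.2 CPM per kb, both in beige adipocytes. The authors' clusters were built from the same peaks, so that these levels are a description with no test.

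**Figure D2:**
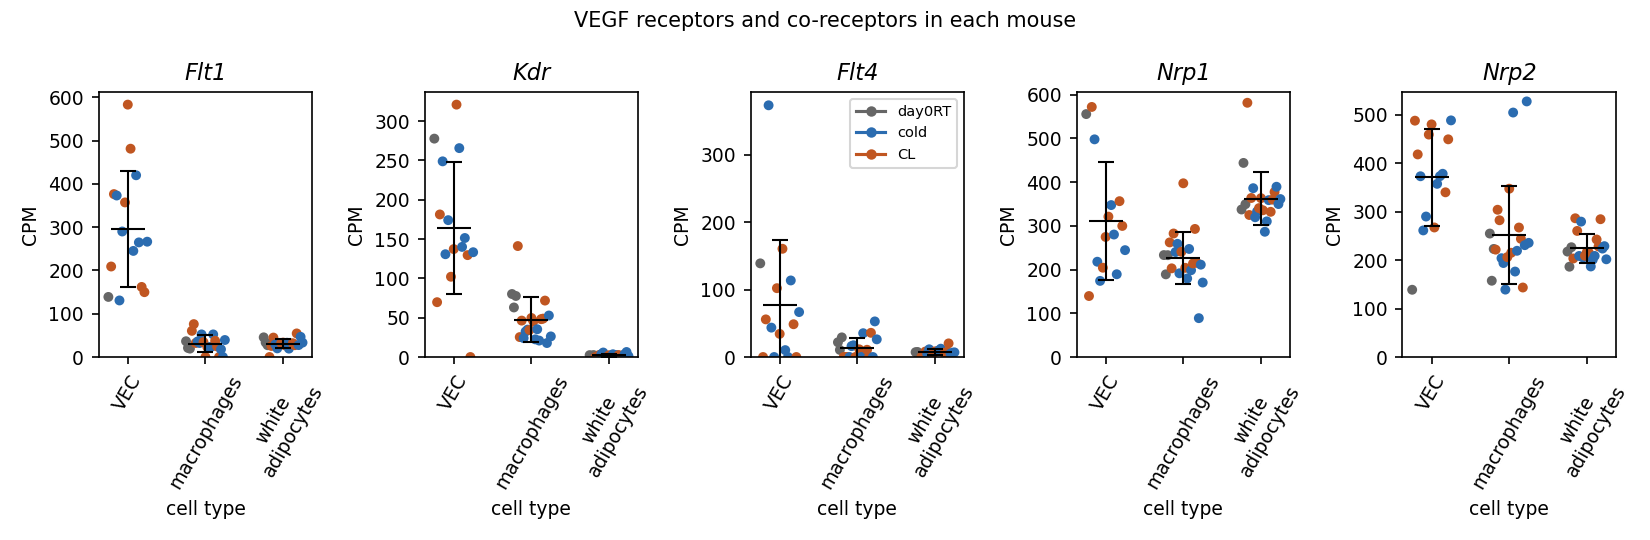
Level in CPM of each receptor and co-receptor in VEC, macrophages and white adipocytes, 1 point per mouse coloured by treatment, with the mean and SD as bars. Flt1 and Kdr in VEC lie above both other cell types in most mice, Flt4 includes 1 VEC library at 373 CPM, and the neuropilins overlap.

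The genes most like each member across the 12 cell types, by Pearson correlation of log2(mean CPM + 1) among 14995 genes, are given as a description, since the 12 points share libraries and depth. For Vegfa they were Ccdc9b (r = 0.974), 6030408B16Rik (r = 0.963) and Alpl (r = 0.956), and for Vegfb they were Slf1 (r = 0.939), G0s2 and Ndc1. Vegfc was closest to S1pr3 (r = 0.938), Asap3 and Hpse2, and Pgf to Kcnj6 (r = 0.919), Pnpla7 and Hgd. Among the receptors, Flt1 was closest to Klhl28 (r = 0.947), Commd10 and Pinx1, Kdr to Ednrb (r = 0.919), Nceh1 and Mark3, and Flt4 to Jam3 (r = 0.932), Tmem229a and Gata2. Nrp1 was closest to Hnrnpll (r = 0.935), Tnfrsf1a and St6galnac2, and Nrp2 to Gas2l1 (r = 0.955), Grk5 and Gucy2g.

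Beige and white adipocytes of the same mice differed most at Nrp2. Its level in beige adipocytes ran from 299 to 575 CPM with a median of 375 CPM, against 186 to 284 CPM with a median of 217 CPM in the white adipocytes of these 19 mice. Beige was above white in 19 of 19 mice and the ranges did not overlap. The log2 fold change was 0.73 ± 0.06 (SE), a 1.65-fold difference, with an adjusted p of 1.14e-19 in the edgeR quasi-likelihood test with Benjamini-Hochberg adjustment. Pgf was also higher in beige adipocytes, at 40.1 ± 25.3 against 24.9 ± 7.61 CPM, with a log2 fold change of 0.62 ± 0.15 (SE, adjusted p = 0.000353) and the beige library higher in 13 of 19 mice. The beige libraries held 148 Pgf counts in all, and the difference within mice was 15.2 ± 26.7 CPM (SD). The fit had the group as a covariate and no mouse term, and also held white libraries of mice without a beige one. In an edgeR fit with the mouse as a block the log2 values were 0.72 for Nrp2 (adjusted p = 1.93e-21) and 0.635 for Pgf (adjusted p = 0.0001615).

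Vegfa was lower in beige adipocytes, and the difference was small. Beige libraries ran from 62.2 to 318 CPM with a median of 195 CPM and white libraries from 189 to 302 CPM with a median of 219.8 CPM, so the ranges overlapped, and beige was higher in 5 of 19 mice. The log2 fold change was -0.19 ± 0.07 (SE, adjusted p = 0.0283 by edgeR), and the call was kept in 13 of 21 fits that each left out 1 mouse. It was lost without day0RT mouse 1, day1C mouse 2, day3C mouse 1 or 3, day7C mouse 1 or 3, or day7CL mouse 1 or 3, with adjusted p up to 0.106. Nrp1 was higher in beige adipocytes in 14 of 19 mice, with a log2 difference of 0.13 ± 0.06 (SE, adjusted p = 0.0896), and Vegfb and Flt1 had log2 differences of -0.22 ± 0.11 (adjusted p = 0.169) and 0.07 ± 0.14 (adjusted p = 0.769). Vegfc, Kdr and Flt4 had too few counts to be tested. Of 12751 genes tested 28.8% were called, against 3 of the 6 members tested, and the members' median log2 difference was 0.0991 against 0.00496 over all genes. The 2 clusters were separated on these same counts, so the p-values are not independent of the labels, and beige nuclei had a median of 3087 counts against 2561 in white nuclei.

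**Figure D3:**
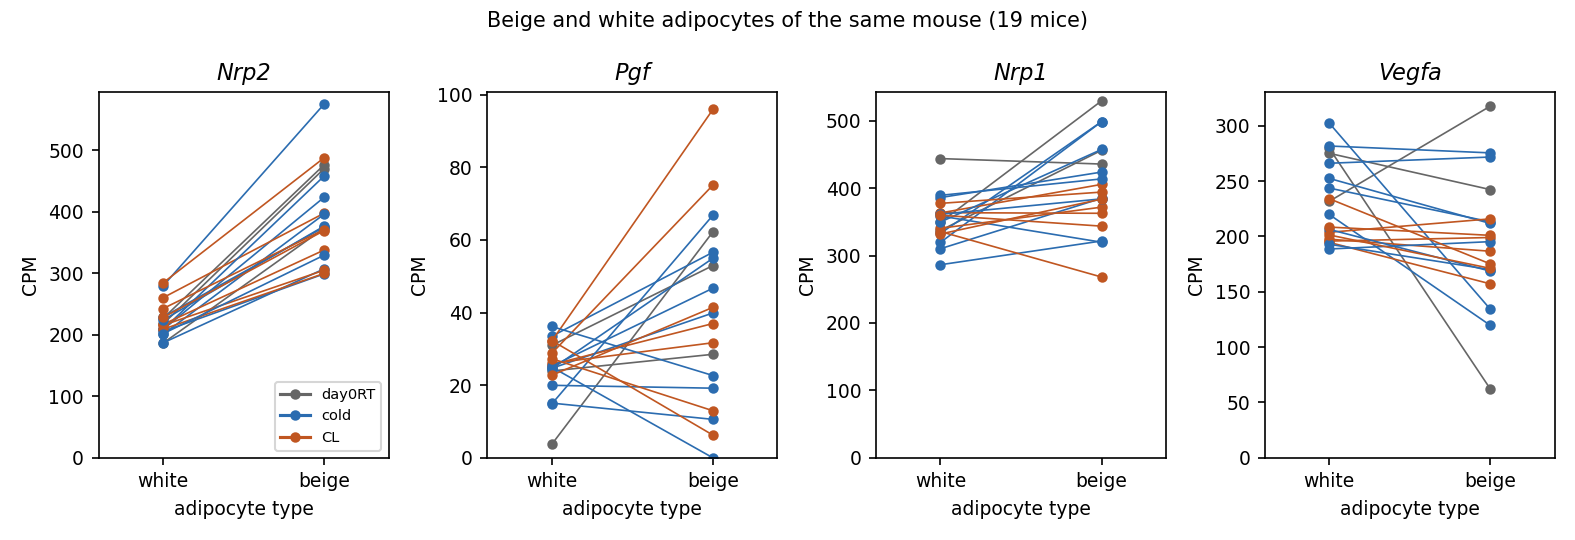
Level in CPM of Nrp2, Pgf, Nrp1 and Vegfa in white and beige adipocytes, with a line joining the 2 libraries of each of 19 mice, coloured by treatment. All 19 Nrp2 lines rise, 13 Pgf lines and 14 Nrp1 lines rise, and 5 Vegfa lines rise.

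At the level of single peaks, 8 of 19 member peaks tested were called between beige and white adipocytes and 2 of 11 flanking peaks, against 26.9% of all 24854 peaks tested. Nrp2 carried 5 of the 8, all higher in beige adipocytes: the intronic +5.1 kb peak shown above (log2 1.21 ± 0.20, SE), the peak at its start (0.89 ± 0.16), and the intronic peaks at +21.5 kb (0.64 ± 0.09), +3.4 kb (0.60 ± 0.17) and +45 kb (0.46 ± 0.12). At +5.1 kb the mean was 21.1 ± 15.3 CPM for the beige libraries against 6.16 ± 3.35 CPM for the white ones, with beige higher in 16 of 19 mice. The intronic Pgf peak at +7.4 kb rose likewise (0.78 ± 0.20), as did the intronic Nrp1 peak at +126.2 kb (0.53 ± 0.13). The most counted Pgf peak, at +8.2 kb over an exon, was not tested. It had 7.67 ± 6.60 CPM in beige against 6.65 ± 3.84 CPM in white libraries. Beige was higher in 9 of 19 mice. The peak over the Nrp1 start did not pass the edgeR test (0.02 ± 0.09, adjusted p = 0.916). Its mean was 101.4 ± 26.4 CPM for beige against 87.9 ± 15.2 CPM for white libraries. Beige was higher there in 15 of 19 mice.

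The Vegfa peaks that differed were all lower in beige adipocytes. The peak over the Vegfa start averaged 45.7 ± 15.98 CPM over the beige libraries against 63.3 ± 13.7 CPM over the white ones, a log2 change of -0.44 ± 0.11 (SE, adjusted p = 0.000634 by edgeR), and beige was higher in 3 of 19 mice. The -21.1 kb peak changed by -1.15 ± 0.19 (SE) and the -24 kb peak by -0.59 ± 0.13, whereas the other 4 member peaks of Vegfa tested did not pass the threshold, with log2 values from -0.22 to 0.29. With the mouse as a block, which pairs the 2 libraries of an animal, 13 of 32 member peaks tested were called, and 27.3% of all 34063 peaks. Without day1CL mouse 3, 14 of 33 were called, and 27.3% of all 37431 peaks.

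Over time, Vegfa was the only member called in adipocytes against day0RT, at day7C and day3CL, and neither call held in all the fits below. With white and beige nuclei of a mouse summed, the 3 day0RT mice had 270.3, 267 and 237 CPM, the day1C mice 281, 281 and 211 CPM and the day3C mice 246, 267 and 240.4 CPM. The day7C mice had 184, 190.6 and 195 CPM. All 3 lay below every day0RT mouse, and the log2 change was -0.42 ± 0.12 (SE, adjusted p = 0.0179 by edgeR), a 1.34-fold lower level, against values of 0.02 ± 0.12 at day1C and -0.03 ± 0.11 at day3C.

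With CL the values lay below those of day0RT from the first day, although the day1CL difference was not called. Day1CL mice 1 and 2 had only 29 and 68 adipocyte nuclei, with 48787 and 177753 counts over genes. Their values are therefore imprecise. The day1CL mice had 184, 174 and 195 CPM of Vegfa, the day3CL mice 206, 196 and 192 CPM and the day7CL mice 196, 207 and 219.7 CPM. None of these 9 mice overlapped the day0RT mice. The log2 changes were -0.42 ± 0.14 at day1CL (SE, adjusted p = 0.0736 by edgeR), -0.35 ± 0.11 at day3CL (adjusted p = 0.0469) and -0.30 ± 0.11 at day7CL (adjusted p = 0.0817), so that day3CL alone passed the threshold. The day7C call was lost without day0RT mouse 1 (adjusted p = 0.0855), day0RT mouse 2 (0.0606) or day7C mouse 1 (0.0719), and the day3CL call by DESeq2 (0.0958). The day3CL call was also lost without any 1 of 9 mice (highest adjusted p = 0.176), namely the 3 day0RT mice, day3CL mouse 2 or 3, day1CL mouse 3, day3C mouse 1, day7C mouse 3 or day7CL mouse 2.

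The make-up of the adipocyte pool moved in some of these groups. Beige nuclei were 9.22 ± 2.62% of adipocyte nuclei at day0RT, 12.8 ± 7.06% at day3CL, 29.4 ± 3.20% at day7C and 20.0 ± 4.85% at day7CL (SD, n = 3 each). In this share the day3CL mice overlapped the day0RT mice, and the day7C and day7CL mice lay above them. In white adipocytes alone Vegfa had 262 ± 26.5 CPM at day0RT, 196 ± 9.25 CPM at day7C and 198 ± 4.95 CPM at day3CL, with log2 changes of -0.37 (adjusted p = 0.127) and -0.36 (adjusted p = 0.0576). The direction was the same and neither passed the threshold. Over the promoter peaks alone the changes were -0.34 (adjusted p = 0.378) and -0.21 (adjusted p = 0.620).

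**Figure D4:**
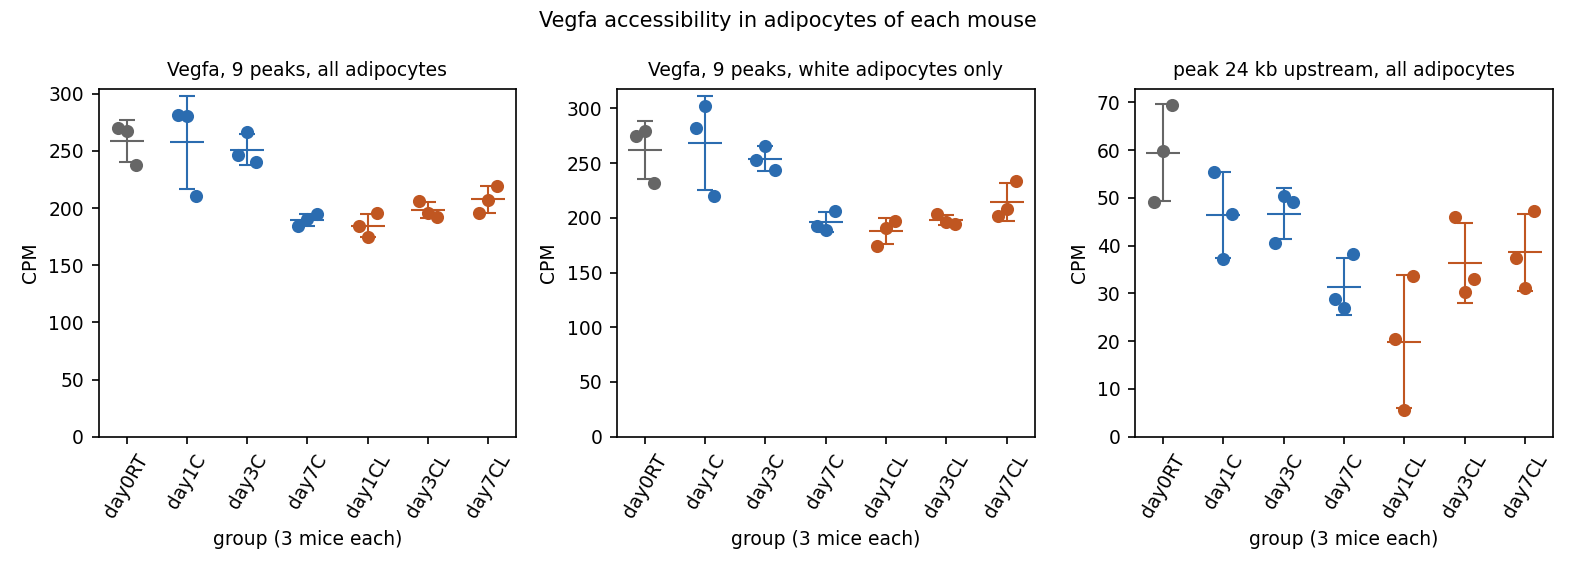
Level in CPM by group, 1 point per mouse with the mean and SD of 3 mice: all Vegfa peaks in all adipocytes, the same in white adipocytes alone, and the -24 kb peak in all adipocytes. The day7C mice (184 to 195 CPM) and the 9 CL mice (174 to 219.7 CPM) lie below the day0RT mice (237 to 270.3 CPM) in the first panel.

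Of the other members, none was called in adipocytes in any of the 6 comparisons with day0RT. The share of all 14408 genes called was 0.34% at day1C, 1.67% at day3C, 5.03% at day7C, 2.58% at day1CL, 4.77% at day3CL and 7.73% at day7CL, and the members called were 1 of 7 tested at day7C, 1 of 7 at day3CL and 0 at the other times. At an unadjusted p under 0.05 the counts were 0, 2 and 1 for day1C, day3C and day7C and 2, 1 and 4 for day1CL, day3CL and day7CL. Of all 14408 genes, 1434, 2066 and 2699 were under it in the cold groups. In the CL groups these were 2186, 2707 and 3220. DESeq2 called Vegfa at day7C and no other member. Kdr and Flt4 were too low in adipocytes to be tested, with mean levels of 0.715 to 4.77 CPM and 2.62 to 11.3 CPM by group.

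Vegfc, which was low in adipocytes, had positive log2 differences from day0RT in all 6 comparisons, none of them called. All 6 used the same day0RT mice, so their signs are not independent of each other. The day0RT mice had 14.3, 3.52 and 6.94 CPM, which is 14 counts in all, against 14.6 to 20.1 CPM at day3C with a log2 difference of 0.78 ± 0.38 (SE, adjusted p = 0.320 by edgeR). Pgf ran from 7.04 to 32.4 CPM at day0RT and from 14.6 to 26.1 CPM at day1C, where its log2 difference was furthest from 0 at -0.40 ± 0.31 (adjusted p = 0.717). Nrp2 had 197 to 254 CPM at day0RT and 251 to 334 CPM at day7CL, with a log2 difference of 0.25 ± 0.12 (adjusted p = 0.2002), and at day1CL the difference was 0.27 ± 0.14 (adjusted p = 0.347). Nrp1 had log2 differences between -0.26 ± 0.11 at day3C (adjusted p = 0.222) and 0.01 ± 0.11 at day7C. For Vegfb the value furthest from 0 was -0.47 ± 0.23 at day1CL (adjusted p = 0.306), and for Flt1 it was -0.33 ± 0.28 at day1C (adjusted p = 0.746).

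The peak 24 kb upstream of Vegfa, outside the 2 kb window, was the only one called at several times. Its levels in all adipocytes were 49.1, 59.8 and 69.4 CPM in the day0RT mice, 28.9, 27.0 and 38.2 CPM in the day7C mice and 20.5, 5.63 and 33.6 CPM in the day1CL mice. The values of day1CL mice 1 and 2 rest on 1 count each, from 29 and 68 adipocyte nuclei. The day3CL mice had 46.0, 30.3 and 33.1 CPM and the day7CL mice 37.3, 31.2 and 47.3 CPM, all 4 groups lying below the lowest day0RT mouse. The log2 changes were -0.89 ± 0.21 at day7C, -0.99 ± 0.24 at day1CL, -0.86 ± 0.19 at day3CL and -0.69 ± 0.18 at day7CL (SE, adjusted p by edgeR of 0.00359, 0.00773, 0.00122 and 0.0131). The day1C mice (37.2 to 55.4 CPM) and the day3C mice (40.6 to 50.3 CPM) overlapped the day0RT mice and were not called. The 4 calls stayed in white adipocytes alone, with log2 changes from -0.61 to -0.92, and were lost without day0RT mouse 3 (adjusted p from 0.199 to 0.358) and by DESeq2 (0.219 to 0.454). Single calls were also lost without day1CL mouse 3 (log2 -2.75, adjusted p = 0.1504), day3CL mouse 2 (0.0534) or day7CL mouse 1 (0.124). The log2 of -2.75 rests on day1CL mice 1 and 2, with 1 count each.

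Among adipose cell types this peak was not particular to adipocytes. Its pooled level was 65.8 CPM in APC2, 41.4 CPM in white adipocytes, 27.8 CPM in beige adipocytes and at most 21.03 CPM in the other clusters, while the -21.1 kb peak was highest in white adipocytes at 22.4 CPM. None of the search letters ACGTG, TCAAGGTCA, TGACGTCA, CCGGAAGT or TGANTCA was found in the printed 300 bases of either.

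**Figure D5:**
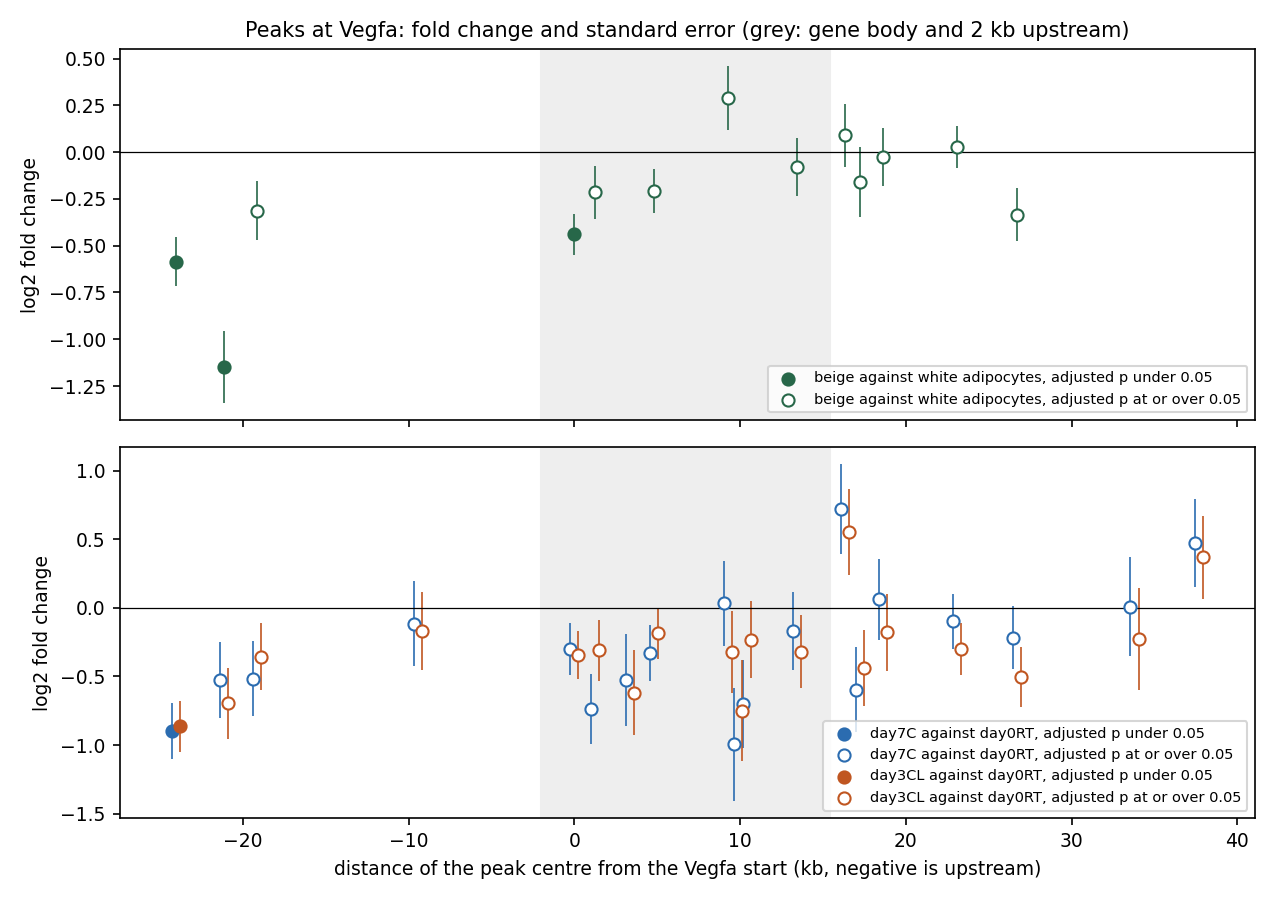
Log2 fold change with its SE for each tested peak at and around Vegfa, against the distance of the peak centre from the start in kb (negative is upstream), for beige against white adipocytes (top) and for day7C and day3CL against day0RT (bottom), with filled points for an adjusted p under 0.05 and the gene body plus 2 kb upstream in grey. In the bottom panel the -24 kb peak is the filled point of both groups, at -0.89 and -0.86, and in the top panel the start, -21.1 kb and -24 kb peaks are filled.

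Of 34 member peaks tested against day0RT, 2 calls were made over the 6 comparisons. The +9.9 kb intronic Vegfa peak had 16.4, 24.6 and 8.10 CPM in the day0RT mice and 0, 5.63 and 1.43 CPM in the day1CL mice, a log2 change of -2.05 ± 0.55 (SE, adjusted p = 0.0185 by edgeR) that rested on 22 and 3 counts. The +68.7 kb Nrp1 peak had 26.6, 35.2 and 37.0 CPM at day0RT and 15.1, 20.8 and 16.8 CPM at day7CL, with no overlap and a log2 change of -0.94 ± 0.25 (adjusted p = 0.0126). The first call was lost without day0RT mouse 1 (adjusted p = 0.0623), day0RT mouse 2 (0.0798) or day1CL mouse 3 (0.677), and the second without day0RT mouse 3 or day7CL mouse 1 (0.249 each). The share of all 47835 peaks called was 0.211% at day1C, 1.25% at day3C, 3.1% at day7C, 2.02% at day1CL, 3.41% at day3CL and 4.13% at day7CL.

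CL and cold were set against each other at the same day, which asks where the stimuli differ. Vegfa had the smallest p-values of the members at days 1 and 3, with log2 differences of CL minus cold of -0.45 ± 0.13 (SE) at day 1 and -0.32 ± 0.10 at day 3 (adjusted p = 0.0802 and 0.0788 by edgeR) and 0.12 ± 0.11 at day 7 (adjusted p = 0.837). All 3 day1CL mice lay below all 3 day1C mice, and all 3 day3CL mice below all 3 day3C mice. At day 7 all 3 CL mice lay above the 3 cold mice. Day1CL mice 1 and 2 had only 29 and 68 adipocyte nuclei. No member was called by edgeR or DESeq2, although Vegfa at day 1 passed without day1C mouse 3 (adjusted p = 0.0156). Nrp1 and Nrp2 had log2 differences between -0.09 and 0.20 over the 3 days. The shares of all genes called were 0.923%, 1.46% and 0.111%. At an unadjusted p under 0.05 were 4, 1 and 2 of 7 members, and 1840, 1739 and 1226 of all 14408 genes. The other members at that level were Vegfb, Pgf and Flt1 at day 1 and Vegfb and Vegfc at day 7, with log2 sizes of -0.47 ± 0.22, 0.67 ± 0.30, 0.57 ± 0.27, -0.36 ± 0.16 and 0.68 ± 0.31.

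In APC1, APC2 and macrophages the mice of all days of a treatment were pooled. Vegfa in APC2 had the largest difference there. The 3 day0RT mice had 293, 152 and 315 CPM, the 9 cold mice ran from 57.5 to 212 CPM with a median of 142 CPM, and 7 CL mice from 81.0 to 175 CPM with a median of 132 CPM. The log2 differences were -0.82 ± 0.27 (SE) for cold and -0.96 ± 0.29 for CL, and neither passed the adjustment over 1670 genes (adjusted p = 0.534 and 0.281 by edgeR). Day0RT mouse 2, with 5 Vegfa counts, lay within both treated groups, and the other 2 lay above all treated mice.

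Nrp1 and Nrp2 were the other members with enough counts. In APC1 their log2 differences were 0.13 ± 0.32 and 0.31 ± 0.30 for cold and 0.55 ± 0.30 and 0.59 ± 0.29 for CL (SE, adjusted p = 0.972, 0.904, 0.658 and 0.607). In APC2 the values lay between -0.21 and 0.08, and in macrophages between -0.11 and 0.22. By edgeR no member was called in APC1, APC2 or macrophages for cold or CL, with 0 and 1 of 2 tested in APC1, 1 and 1 of 3 in APC2 and 0 and 0 of 2 in macrophages at an unadjusted p under 0.05, and DESeq2 called none. The shares of all genes called were 0.0902% for both treatments in APC1 and 0% for both in APC2 and in macrophages.

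Kdr in macrophages had too few counts for a test and is given as values, chosen after they were seen. The 3 day0RT mice had 63.0, 77.6 and 80.1 CPM, from 25 counts. The 9 cold mice ran from 17.8 to 52.8 CPM with a median of 26.2 CPM, from 17 counts, and so lay below every day0RT mouse, while the 9 CL mice ran from 25.3 to 141 CPM with a median of 48.1 CPM and overlapped them. The difference was not tested.

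In VEC only 1 day0RT mouse had 10 nuclei, so endothelial cells of treated mice could not be compared with untreated ones. Between 7 CL and 7 cold mice no receptor passed an exact two-sided permutation test of each gene, with p-values adjusted over the 5 genes. Days were pooled and unevenly filled, with 2, 3 and 2 CL libraries and 3, 3 and 1 cold libraries at days 1, 3 and 7. With so few counts per library, a difference could be missed. Flt1 had 331 ± 166 CPM with CL and 284 ± 93.2 CPM in cold (SD, p = 0.523 in the exact permutation test), Kdr 134 ± 100.3 and 178 ± 56.4 CPM (p = 0.345, exact) and Flt4 57.3 ± 57.5 and 86.7 ± 133 CPM (p = 0.731, exact). Nrp1 had 309 ± 137 and 279 ± 113 CPM (p = 0.644, exact), Nrp2 had 415 ± 81.8 and 360.3 ± 72.8 CPM (p = 0.211, exact), and every adjusted p was 0.731.

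The genes of the wider pathway were taken from 3 lists and counted in the same adipocyte fits. The lists were chosen with earlier results of these data known, so their shares are a description. Of 50 tested genes of VEGF receptor signalling, 8 were higher and 10 lower in beige than in white adipocytes, 36% in all against 28.8% of all genes, with a median log2 difference of -0.07. Hspb1, a small heat shock protein phosphorylated downstream of KDR, was higher (0.69 ± 0.16, SE) and Src, the kinase that links KDR to vessel permeability, was lower (-0.60 ± 0.12). Against day0RT the counts higher and lower were 0 and 0 at day1C, 3 and 0 at day3C, 2 and 2 at day7C, 0 and 1 at day1CL, 3 and 2 at day3CL and 3 and 2 at day7CL. These are 0% to 10% of the list against 0.34% to 7.73% of all genes. The p38 target Mapkapk3 was higher at day3C, day7C, day3CL and day7CL with log2 changes of 0.57 to 0.60, and Src was lower at day7C (-0.80 ± 0.18) and at day1CL (-0.69 ± 0.20), day3CL (-0.53 ± 0.16) and day7CL (-0.69 ± 0.16).

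Of 29 tested angiogenic partners, Angptl4, an inhibitor of lipoprotein lipase that also acts on vessels, was lower at day3C (-0.97 ± 0.16, SE), day7C (-1.07 ± 0.17), day1CL (-0.71 ± 0.19), day3CL (-0.80 ± 0.16) and day7CL (-0.95 ± 0.16). The vessel growth inhibitor Thbs2 was lower at day7C (-0.74 ± 0.20) and day7CL (-0.54 ± 0.18), Fgf1 was higher at day7C (0.53 ± 0.14) and Angpt2, a ligand of the endothelial receptor TIE2, was higher at day7CL (0.50 ± 0.15). The counts called were 0 of 29 at day1C, 1 at day3C, 3 at day7C, 2 at day1CL, 1 at day3CL and 3 at day7CL, so that the share was 0% to 10.34% against 0.34% to 7.73% of all genes. Between beige and white adipocytes 3 were higher and 8 lower of 23 tested, 47.8% in all against 28.8% of all genes, among them Ackr3 (1.32 ± 0.10) and Fgf1 (0.59 ± 0.08) higher and Fgf2 (-0.64 ± 0.08) lower.

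Of 21 hypoxia and PGC-1 regulators, which include known regulators of Vegfa transcription, 4 were higher and 4 lower in beige adipocytes, 38.1% in all against 28.8% of all genes. Egln1, the oxygen-sensing hydroxylase that marks HIF for degradation, was higher (0.84 ± 0.07, SE), as was the nuclear receptor Esrrg (0.66 ± 0.06), and Hif3a was lower (-1.10 ± 0.13). At day7C Egln1 was higher (0.64 ± 0.13) and Hif3a lower (-0.62 ± 0.19), and single genes were higher at day1CL (Hif1a, 0.73 ± 0.21), day3CL (Ep300, 0.69 ± 0.22) and day7CL (Ppargc1a, 0.44 ± 0.15), with none called at day1C or day3C. Over all genes, 5.03% were called at day7C, and 2.58%, 4.77% and 7.73% at day1CL, day3CL and day7CL. A single gene of a list this short is a share of that order. The lists' medians over the 6 comparisons with day0RT lay between -0.10 and 0.16, against medians between -0.0101 and -0.000124 over all genes. In APC1, APC2 and macrophages none of the genes tested from the 3 lists was called.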

How the data were processed

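Single-nucleus ATAC-seq of iWAT was deposited as a peak by nucleus matrix with an annotation giving the mouse, group and cell type of each nucleus. The authors aligned the reads to mm10 with Bowtie2, sorted them with SAMtools, called peaks with MACS2 on each initial cluster and merged them, removed nuclei with few reads, a low share of reads in peaks or a high doublet score, and clustered with Signac. The deposited counts are binary, with 0 entries above 1, so a count is a nucleus with reads in a peak and widely open peaks are flattened. Counts were summed per mouse and cell type (at least 10 nuclei), and per gene over peaks touching the gene body or the 2 kb upstream. 3.38% of peaks counted for several genes. The depth was 1340376 to 6916698 counts per mouse, and the SD over mice includes counting error.

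Tests used edgeR 4.0.16 (R 4.3.3) with the quasi-likelihood test, TMM scaling, filterByExpr (minimum count 10, total 15, proportion 0.7), a prior count of 2 and Benjamini-Hochberg adjustment over all genes or peaks tested in a contrast, with a threshold of 0.05. Beige and white libraries were compared with the group as a covariate. All 21 adipocyte libraries shared 1 fit, and APC1, APC2 and macrophages had a fit each pooling the days of a treatment. DESeq2 1.42.0 was an alternative. A neighbour in an order of levels counted as beyond the spread when the mean difference within mice exceeded its SD. The exact permutation test in VEC (scipy 1.17.1) was chosen after seeing the data. Scripts were tested on simulated data.

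All members are counted in each comparison, and values are given for part of them. Of peaks, those called are named, and the most counted of each member except Vegfb and Flt4. Of each list, up to 2 called genes a direction are named. The members and lists were chosen with earlier results of these data known. Mice with the same replicate number did not deviate together (63 pairs, r from -0.116 to 0.153, 1 over 0.1). In 3 of 21 pairs of mice within a group the counts agree within sampling noise, but these mice shared no barcode and were counted apart.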

Additional observations from a re-analysis of the deposited data

Results flagged for a closer look

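Of 33 sets of 4 to 10 libraries examined, 7 held a highest library that stood apart from the rest by Dixon's criterion at 95%, which chance meets in about 1 in 20 sets of well-measured values, a rate that is not known to hold for libraries of so few counts. In the cluster labelled VSMC, with 10 libraries, these were Pgf at 270.9 CPM (next library 89.95 CPM), Flt4 at 79.3 CPM (next 30.56 CPM), Vegfc at 67.57 CPM (next 29.98 CPM) and Kdr at 17.77 CPM (next 7.64 CPM). These 4 values rest on 3, 1, 1 and 3 counts, and the other 8 libraries held 0 counts of Kdr. In VEC of cold mice, Flt4 reached 373.2 CPM in 1 library, on 3 counts, against 113.5 CPM in the next. Nrp1 reached 373.6 CPM in APC2 of 1 cold mouse, on 13 counts (next 259.8 CPM), and 397.1 CPM in macrophages of 1 CL mouse, on 8 counts (next 292.8 CPM).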

How the results depend on the processing

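In beige against white adipocytes the Nrp2 call stayed under every alternative and every left-out mouse. The Pgf call stayed under every left-out mouse and every alternative but promoter peaks only, where Pgf was not called. The Vegfa call was lost with at least 30 nuclei per library (adjusted p = 0.115) and with nuclei of at least 2000 counts (0.0704). Nrp1, not called above, was called without TMM (log2 0.145, adjusted p = 0.0401 by edgeR). Leaving out 1 mouse gave 2 to 4 members called. Against day0RT, the 2 member calls in adipocytes became 1 by DESeq2, 0 over promoter peaks only, 4 over unique peaks only, 0 in nuclei with at least 2000 counts, 0 in white adipocytes only, 1 with only the 2 groups compared and 0 to 2 with 1 mouse left out (0 without day0RT mouse 1 or 2). For CL against cold, 0 calls became 1 without TMM, 1 in nuclei with at least 2000 counts and 0 to 1 with 1 mouse left out (1 without day1C mouse 3). In APC1, APC2 and macrophages the count stayed at 0 in the alternatives that could be fitted. The cell type with the highest mean was the same for 5 to 9 of the 9 members over 6 settings: it became the VSMC cluster for Vegfa over promoter peaks only, with CPM over all peaks, at least 30 nuclei or nuclei of at least 2000 counts, and APC2 for Pgf in the first and last of these, and VEC for Nrp1 in the last 2. The 9 of 9 came with unique peaks only, where both Vegfb peaks drop out, so Vegfb has no level to compare there. Promoter peaks alone in APC1 and APC2, and VEC against day0RT, could not be fitted.

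Of peaks, the 8 member calls between beige and white adipocytes became 22 with no filter on low counts (all peaks: 6694 to 44231), 13 with the mouse as a block (all peaks: 9309) and 7 to 14 with 1 mouse left out (14 without day1CL mouse 3, all peaks 10216), and the share higher in beige of all peaks called was 48.2% against 68.0% without TMM. The 2 member peak calls against day0RT became 0 by DESeq2, 0 with no filter, 1 in nuclei with at least 2000 counts, 0 in white adipocytes only and 1 to 2 with 1 mouse left out (1 without day0RT mouse 1, 2 or 3, day1CL mouse 3 or day7CL mouse 1). The share higher of all peaks called moved without TMM from 65.1% to 54.2% at day3CL and from 55.3% to 43.8% at day7CL. DESeq2 called fewer features in all. The log2 change of the -24 kb Vegfa peak at day1CL was -2.75 without day1CL mouse 3, with 1 count each in day1CL mice 1 and 2. Vegfa values near 0 changed sign: at day1C the log2 change ran from -0.0744 to 0.1445 with 1 mouse left out, and at day3C it was 0.0927 over promoter peaks only, 0.0195 in nuclei with at least 2000 counts and -0.112 to 0.00298 with 1 mouse left out. The cause of these changes was not tested. With the replicate number as a block no call changed, and mice with the same number did not deviate together in the pairing check. The barcode sequences found in more than 1 mouse did follow treatment and replicate number. What the number stands for was not tested.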
